A study of Mus musculus with 18 samples.

Results

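The CC chemokine genes Ccl2, Ccl3, Ccl4, Ccl5, Ccl6, Ccl7, Ccl8, Ccl9, Ccl12 and Ccl22 were followed through RNA-seq of mouse peritoneal macrophages with and without lipopolysaccharide (LPS). They were taken by gene symbol, and they are 10 of the 13598 genes with a value. All 10 also passed the filter for testing, which asked for 1 FPKM or more in 3 or more of the 18 libraries and left 9707 genes. FPKM scales the fragments of a transcript to its length and to the fragments of the library, so it is a level per length and can be compared between genes. In each library the FPKM of the first exons of a gene and that of its last exons were summed, and the larger sum was its value. Macrophages came from TLR4-WT mice and from TLR4-K730R and TLR4-K810R mice, in which CRISPR/Cas9 editing on the C57BL/6 background replaced the named lysine in the TIR domain of TLR4, the intracellular signalling domain of the LPS receptor, with arginine. The cells were peritoneal exudate cells collected by lavage after thioglycolate injection, so they are elicited macrophages. Each genotype had 3 mock-treated libraries and 3 libraries from cells treated with 100 ng/ml LPS for 6 h, which gave 6 groups. The comparisons ask which chemokine transcripts LPS raises and whether either lysine changes that response. Neither age nor sex of the mice is given, and the 3 libraries of a group are not stated to come from separate animals, so the p-values measure the spread between these libraries, which may be technical. The libraries hold bulk RNA, in which fewer cells of a type and less RNA per cell cannot be told apart.

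CC chemokines are small secreted proteins, named for a pair of adjacent cysteines, that draw leukocytes along a gradient through G protein-coupled receptors. Ccl2, Ccl7 and Ccl12 act mainly through Ccr2 and recruit monocytes, and mouse Ccl8 signals through Ccr8. Ccl3, Ccl4 and Ccl5 recruit T cells, monocytes and other leukocytes, Ccl6 and Ccl9 bind Ccr1, and Ccl22 attracts regulatory and type-2 helper T cells through Ccr4. In macrophages LPS acts on TLR4, which signals through Mal and MyD88 to NF-κB and through TRAM and TRIF to IRF3 and type I interferon, and many CC chemokine genes are known targets of these routes.

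Of the 10 genes, 9 lie in a cluster on chromosome 11 and Ccl22 lies alone on chromosome 8 (GRCm38). The members on the first stretch lie on the plus strand, with Ccl2 at chr11:82035571-82037453, Ccl7 at chr11:82045712-82047525, Ccl12 at chr11:82101845-82103400 and Ccl8 at chr11:82115185-82116799. Farther along the chromosome, Ccl5 (chr11:83525778-83530518), Ccl9 (chr11:83572919-83578636), Ccl6 (chr11:83587882-83593087) and Ccl3 (chr11:83647844-83649355) lie on the minus strand and Ccl4 (chr11:83662584-83664683) on the plus strand. Ccl22 is at chr8:94745590-94751699 on the plus strand. The longest run of identical bases between transcripts of a pair of members was 25, for the neighbours Ccl6 and Ccl9, and the next was 23, for Ccl2 and Ccl7.

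RefSeq promoter windows of 300 bases around the transcript start were at hand for 6 of the 10 genes (GRCm38.p6), and 4 are printed because their genes responded differently to LPS although they sit in the same cluster. The windows of Ccl9 (chr11:83578587-83578886, minus strand) and Ccl6 (chr11:83593038-83593337, minus strand) belong to adjacent genes, of which the first rose after LPS in every genotype and the second in none. The window of Ccl3 (chr11:83649329-83649628, minus strand) belongs to a gene that rose in every genotype, and that of Ccl8 (chr11:82114935-82115234, plus strand) to a gene that rose in TLR4-WT macrophages. Each is written 5′ to 3′ on the strand of its gene, and capitals mark matches, on either strand, to the NF-κB motif kappaB, to the interferon-stimulated response element core GAAANNGAA or to the AP-1 motif TGANTCA.
Ccl9: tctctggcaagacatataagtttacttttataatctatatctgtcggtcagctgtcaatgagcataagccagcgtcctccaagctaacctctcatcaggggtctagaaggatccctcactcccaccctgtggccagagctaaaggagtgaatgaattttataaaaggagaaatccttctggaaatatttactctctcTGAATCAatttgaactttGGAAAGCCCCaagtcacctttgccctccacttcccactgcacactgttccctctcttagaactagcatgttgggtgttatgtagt
Ccl6: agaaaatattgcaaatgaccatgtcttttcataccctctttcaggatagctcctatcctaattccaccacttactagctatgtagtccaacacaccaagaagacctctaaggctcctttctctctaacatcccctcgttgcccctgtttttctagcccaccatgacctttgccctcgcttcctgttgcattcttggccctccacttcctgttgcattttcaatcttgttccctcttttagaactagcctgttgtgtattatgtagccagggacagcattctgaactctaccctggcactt
Ccl3: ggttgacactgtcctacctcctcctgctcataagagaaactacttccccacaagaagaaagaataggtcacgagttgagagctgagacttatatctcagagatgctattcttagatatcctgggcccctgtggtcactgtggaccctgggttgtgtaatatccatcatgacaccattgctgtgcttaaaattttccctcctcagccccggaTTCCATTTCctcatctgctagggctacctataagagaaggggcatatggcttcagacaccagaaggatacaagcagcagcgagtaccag
Ccl8: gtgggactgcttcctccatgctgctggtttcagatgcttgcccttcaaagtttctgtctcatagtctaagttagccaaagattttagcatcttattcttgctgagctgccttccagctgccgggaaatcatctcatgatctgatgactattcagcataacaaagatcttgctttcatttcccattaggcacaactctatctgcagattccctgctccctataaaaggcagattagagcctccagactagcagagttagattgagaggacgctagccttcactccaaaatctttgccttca
The Ccl9 window holds an AP-1 match 53 to 47 bases and a kappaB match, on the opposite strand, 35 to 26 bases before the transcript start. The Ccl3 window holds a match to the response element core 39 to 31 bases before the start, on the opposite strand. None of these letters was found in the windows of Ccl6, Ccl8, Ccl12 and Ccl22, of which Ccl12 and Ccl22 rose in every genotype. Among 32851 windows of the same length, 4.51% hold a kappaB match, 8.56% the response element core and 7.81% an AP-1 match. A match is a string of letters and not a measured binding site. Ccl2, Ccl4, Ccl5 and Ccl7 have no window here.

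Of 8 macrophage markers, 7 had a value, while Itgam had no event. These 7 summed to 11633 to 14785 FPKM in mock-treated and 7289 to 10057 FPKM in LPS-treated libraries. Most of each sum was Lyz2, with a mean of 12484 FPKM in mock-treated TLR4-WT libraries. Cd14 had FPKM in LPS-treated TLR4-K810R library 3 alone (463 FPKM). Csf1r, Cd68, Lyz2 and Mertk were called lower after LPS in TLR4-WT and TLR4-K730R, and Mertk in TLR4-K810R. Fcgr1 was called higher in every genotype and Adgre1 in TLR4-K810R. Dendritic cell markers summed to at most 2.17 FPKM, with Flt3, Xcr1 and Itgae at no event, and B cell markers to at most 3.66 FPKM, T and NK cell markers to at most 0.703 FPKM, mast cell markers to at most 5.25 FPKM and eosinophil markers to at most 2.79 FPKM. Neutrophil markers (6 of 6 with a value) summed to 61.1 to 83.3 FPKM in mock-treated and 204 to 281 FPKM in LPS-treated libraries, and monocyte markers (4 of 5, with Chil3 at no event) to 18.4 to 42.6 and 224 to 485 FPKM. Most of the neutrophil gap was S100a8, at 22.1 to 45.1 FPKM in mock-treated and 165 to 239 FPKM in LPS-treated libraries. Ly6g and Mpo stayed at or below 0.644 FPKM and S100a9 at or below 2.23 FPKM. Retnlg of the same list was called lower after LPS in TLR4-WT (log2 difference -1.58, adjusted p = 7.46e-05, limma). LPS was added to cells already collected. Most of the monocyte gap was Ly6c2, at 5.27 to 37.5 and 204 to 461 FPKM. Vcan was called higher after LPS in every genotype (log2 difference 3.35, 2.85 and 2.18) and Plac8 in TLR4-WT (3.33, adjusted p = 2.98e-07), while Ccr2 was not called higher in any and was called lower in both mutants. Intestinal epithelial markers (7 of 7) summed to 42.6 to 111 FPKM in the mock-treated libraries of both mutants and to 0.67 FPKM or less in those of TLR4-WT. With LPS they summed to 48.8 to 56.7 FPKM in TLR4-K730R, 0.127 to 20 FPKM in TLR4-K810R and 0.0928 to 10.3 FPKM in TLR4-WT libraries, and Fabp1, Epcam, Reg3b and Reg3g were called lower after LPS in TLR4-K810R. The part of these cells in the chemokine values was not tested. Depth is unknown, since the analysis starts from FPKM.

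Most of the CC chemokines rose after LPS in every genotype. In TLR4-WT macrophages 9 of the 10 genes rose, all but Ccl6, where 10.4% of the 9707 genes tested were called higher. In TLR4-K730R macrophages 8 of 10 rose, with 9.32% of all genes called higher, and in TLR4-K810R macrophages 8 of 10 rose, with 9.08% of all genes called higher. Ccl6 and Ccl8 were the genes not called in either mutant. Calls are from limma on log2(FPKM + 1) with a Benjamini-Hochberg adjusted p below 0.01 over all genes tested, and a log2 difference on this scale understates the change of low genes. The median log2 difference of the 10 genes was 3.38, 3.01 and 2.56 in TLR4-WT, TLR4-K730R and TLR4-K810R macrophages, beside -0.28, -0.36 and -0.26 over all genes tested. Median-of-ratios scaling shifted the all-gene medians by 0.26, 0.32 and 0.23.

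**Figure D1:**
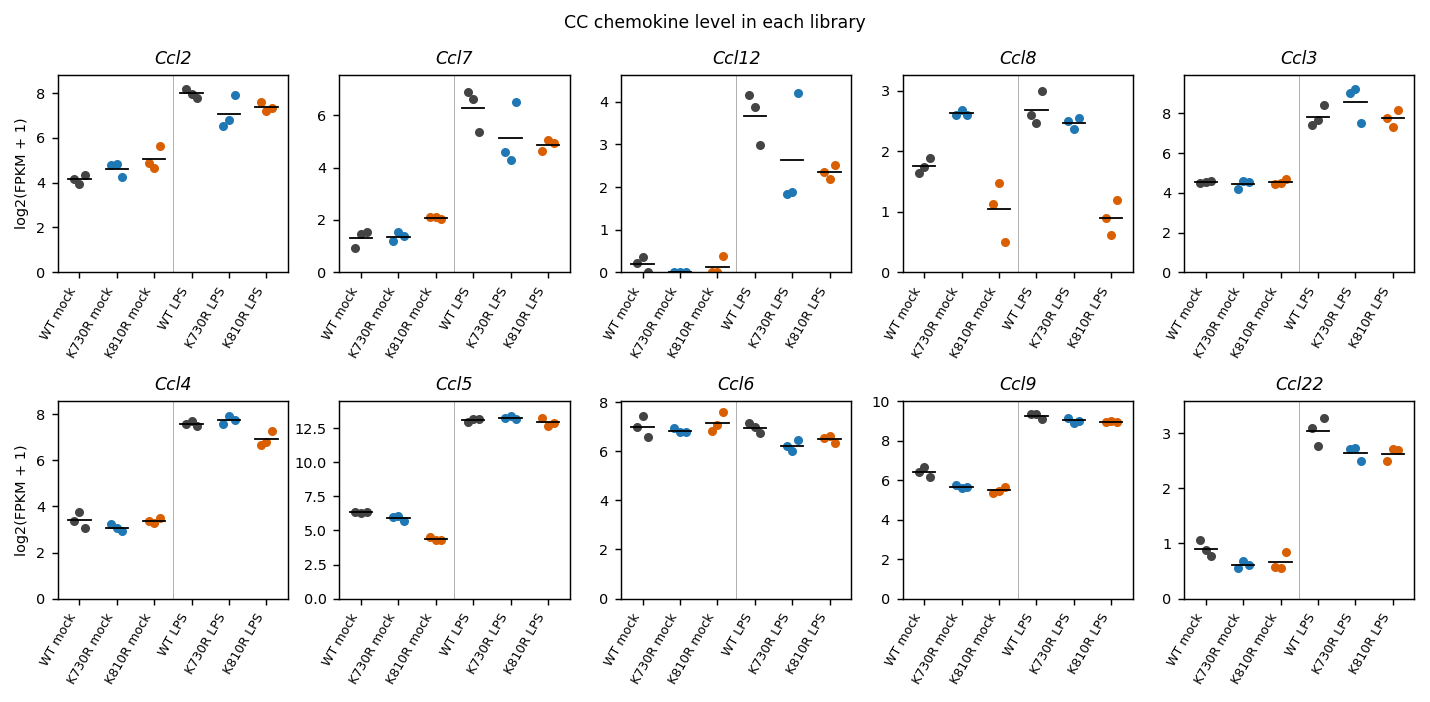
Level of each CC chemokine gene as log2(FPKM + 1) in 18 libraries, with 1 point per library and a line at the mean of the 3 libraries of a group. LPS-treated libraries lie above the mock-treated libraries of the same genotype for 8 genes in every genotype, whereas the groups of Ccl6 overlap in TLR4-WT and Ccl8 is lowest in the TLR4-K810R groups.

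The monocyte-attracting genes Ccl2, Ccl7 and Ccl12 rose in every genotype. Ccl2 was at 16.8, 14.5 and 19.2 FPKM in mock-treated TLR4-WT libraries and at 292, 249 and 219 FPKM with LPS, a log2 difference of 3.83 (SE 0.31, adjusted p = 5.49e-08). In TLR4-K730R macrophages Ccl2 went from 26.5, 27.4 and 18.1 FPKM to 90.2, 111 and 242 FPKM (log2 difference 2.46, adjusted p = 7.36e-06). The third LPS-treated TLR4-K730R library stood above the other two and within the range of the TLR4-WT libraries. In TLR4-K810R macrophages Ccl2 went from 28.7, 24 and 48.4 FPKM to 196, 148 and 161 FPKM (log2 difference 2.34, adjusted p = 1.61e-05). Each LPS-treated group lay above all mock-treated libraries of its genotype.

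In TLR4-WT macrophages Ccl7 was at 0.919, 1.78 and 1.87 FPKM without and at 118, 97.6 and 39.8 FPKM with LPS (log2 difference 4.98, SE 0.45, adjusted p = 2.28e-07). The TLR4-K730R libraries were at 1.29, 1.87 and 1.6 FPKM without LPS and at 23.4, 18.6 and 90.1 FPKM with it (log2 difference 3.77, adjusted p = 4.77e-06). The TLR4-K810R libraries were at 3.27, 3.35 and 3.07 FPKM without LPS and at 23.6, 32.2 and 29.6 FPKM with it (log2 difference 2.79, adjusted p = 0.000128). The spread within the LPS-treated group was wide in TLR4-WT (SD 40.6 FPKM) and TLR4-K730R (SD 40) and narrow in TLR4-K810R macrophages (SD 4.4). Ccl12 was at or near 0 without LPS, with at most 0.296 FPKM in any mock-treated library and 0 in all 3 TLR4-K730R libraries. With LPS it was at 16.8, 13.7 and 6.87 FPKM in TLR4-WT, 2.56, 2.72 and 17.5 FPKM in TLR4-K730R and 4.09, 3.55 and 4.69 FPKM in TLR4-K810R libraries. The log2 differences of Ccl12, which depend on the pseudocount of 1, were 3.47, 2.64 and 2.22, with adjusted p of 1.39e-05, 0.000195 and 0.00107. With a pseudocount of 0.1 they were 5.75, 5.67 and 4.72, above those of Ccl7 (5.63, 4.35 and 3.09). The TLR4-K730R call was lost when only the groups compared entered the fit (adjusted p = 0.012).

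Ccl8, the last member on this stretch of chromosome 11, behaved differently from Ccl2, Ccl7 and Ccl12. It rose in TLR4-WT macrophages, from 2.11, 2.36 and 2.71 FPKM to 5.08, 4.56 and 6.94 FPKM (log2 difference 0.93, SE 0.22, adjusted p = 0.00223). In TLR4-K730R macrophages it was already at 5.09, 5.39 and 5.07 FPKM without LPS and at 4.69, 4.15 and 4.86 FPKM with it (log2 difference -0.15, adjusted p = 0.578). In TLR4-K810R macrophages it was at 1.19, 1.79 and 0.417 FPKM without and at 0.855, 0.531 and 1.3 FPKM with LPS (log2 difference -0.14, adjusted p = 0.646). The mock-treated TLR4-K730R libraries thus lay inside the range of LPS-treated TLR4-WT libraries, and all TLR4-K810R libraries lay below every TLR4-WT library. The TLR4-WT call was lost with a pseudocount of 0.1 (log2 difference 1.16, adjusted p = 0.0198), without mock-treated library 1 (0.87, adjusted p = 0.0111) and without LPS-treated library 3 (0.78, adjusted p = 0.0128). The direction in TLR4-K730R turned with median-of-ratios scaling (log2 difference 0.19).

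**Figure D2:**
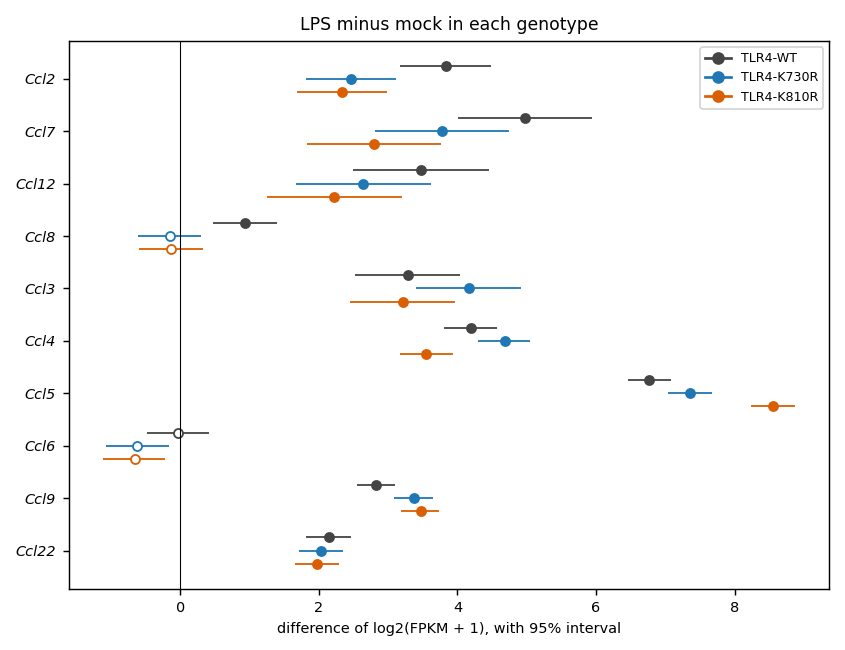
Log2 difference between LPS-treated and mock-treated macrophages for each CC chemokine gene and genotype, on the log2(FPKM + 1) scale, with the 95% interval from limma. Filled circles passed an adjusted p of 0.01 and open circles did not. Ccl5 has the largest differences, which are 6.77 (TLR4-WT), 7.35 (TLR4-K730R) and 8.56 (TLR4-K810R), and the intervals of Ccl6 and Ccl8 lie nearest to 0.

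Among the genes in the second stretch of the cluster, Ccl5 reached the highest level of the family by far. Mock-treated TLR4-WT libraries were at 80.2, 76.2 and 82.2 FPKM and LPS-treated ones at 7818, 9272 and 9345 FPKM (log2 difference 6.77, SE 0.15, adjusted p = 3.46e-14). TLR4-K730R libraries rose from 64.1, 66.2 and 49.9 FPKM to 9723, 10597 and 9414 FPKM (7.35, adjusted p = 9.82e-15). TLR4-K810R libraries rose from 22.1, 18.5 and 19.2 FPKM to 9915, 6498 and 7540 FPKM (8.56, adjusted p = 1.92e-15). Ranked by group mean among the 13598 genes with a value, Ccl5 moved from place 585 to place 3 in TLR4-WT, from 762 to 2 in TLR4-K730R and from 2365 to 4 in TLR4-K810R macrophages. The value of Ccl5 rests on 1 last-exon event, because no first-exon event lies within the annotated gene.

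Ccl3 and Ccl4, the macrophage inflammatory proteins 1-alpha and 1-beta, rose in every genotype. Ccl3 was at 21.3, 22.5 and 23.6 FPKM without and 170, 200 and 345 FPKM with LPS in TLR4-WT macrophages (log2 difference 3.28, SE 0.36, adjusted p = 1.67e-06). In TLR4-K730R macrophages it went from 17.3, 23.1 and 22.2 FPKM to 520, 602 and 183 FPKM (4.16, adjusted p = 1.13e-07). In TLR4-K810R macrophages it went from 20.7, 21.7 and 24.9 FPKM to 216, 159 and 291 FPKM (3.21, adjusted p = 2.56e-06). The third LPS-treated TLR4-K730R library, which stood high for Ccl2, Ccl7 and Ccl12, stood low for Ccl3. Ccl4 varied less. It rose from 9.47, 12.6 and 7.25 FPKM to 189, 206 and 179 FPKM in TLR4-WT (4.19, SE 0.18, adjusted p = 4.62e-11), from 8.45, 7.29 and 6.68 FPKM to 188, 243 and 217 FPKM in TLR4-K730R (4.68, adjusted p = 1.32e-11) and from 9.19, 8.67 and 10.3 FPKM to 101, 112 and 153 FPKM in TLR4-K810R macrophages (3.55, adjusted p = 2.52e-10).

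The neighbouring Ccr1 ligands Ccl9 and Ccl6 were both well expressed without LPS but parted after it. Ccl9 rose from 86.2, 103 and 70.7 FPKM to 647, 654 and 544 FPKM in TLR4-WT macrophages (log2 difference 2.82, SE 0.13, adjusted p = 1.17e-10). It rose from 53.1, 48.3 and 49.5 FPKM to 581, 486 and 521 FPKM in TLR4-K730R (3.37, adjusted p = 1.40e-11) and from 40.2, 43.1 and 49.4 FPKM to 490, 510 and 491 FPKM in TLR4-K810R macrophages (3.47, adjusted p = 1.10e-11). Ccl6 was at 127, 170 and 94.6 FPKM without and 141, 125 and 107 FPKM with LPS in TLR4-WT libraries (-0.04, SE 0.21, adjusted p = 0.908), where the groups overlapped. Its LPS-treated libraries lay below the mock-treated ones in both mutants, at 73.3, 62.7 and 86.9 against 121, 110 and 110 FPKM in TLR4-K730R (-0.62, adjusted p = 0.0229) and at 90.8, 95.8 and 79.9 against 111, 132 and 191 FPKM in TLR4-K810R (-0.66, adjusted p = 0.0194), which did not pass the threshold.

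Ccl22, the Ccr4 ligand on chromosome 8, stayed low and rose in each genotype. It went from 1.08, 0.838 and 0.711 FPKM to 7.57, 5.79 and 8.7 FPKM in TLR4-WT (log2 difference 2.14, SE 0.15, adjusted p = 1.22e-08), from 0.47, 0.605 and 0.531 FPKM to 5.57, 5.64 and 4.6 FPKM in TLR4-K730R (2.03, adjusted p = 2.14e-08) and from 0.496, 0.476 and 0.788 FPKM to 4.6, 5.53 and 5.46 FPKM in TLR4-K810R macrophages (1.97, adjusted p = 3.48e-08).

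The make-up of the family changed with LPS. The 10 genes together summed to 351 ± 51.2 FPKM (SD, n = 3) without LPS in TLR4-WT macrophages, 284 ± 17.7 FPKM for TLR4-K730R and 279 ± 59.9 FPKM for TLR4-K810R. With LPS the sums were 10345 ± 815, 11376 ± 691 and 9121 ± 1767 FPKM. Without LPS Ccl6 held the largest mean share, which was 36.7%, 40.1% and 51.3% for the same 3 genotypes. With LPS Ccl5 held 85.1% ± 1.75, 87.1% ± 0.349 and 87.3% ± 2.19 of the sum. Before LPS the share of Ccl5 was 23.1% ± 4.16 for TLR4-WT, 21.1% ± 1.97 for TLR4-K730R and 7.39% ± 1.9 for TLR4-K810R macrophages.

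**Figure D3:**
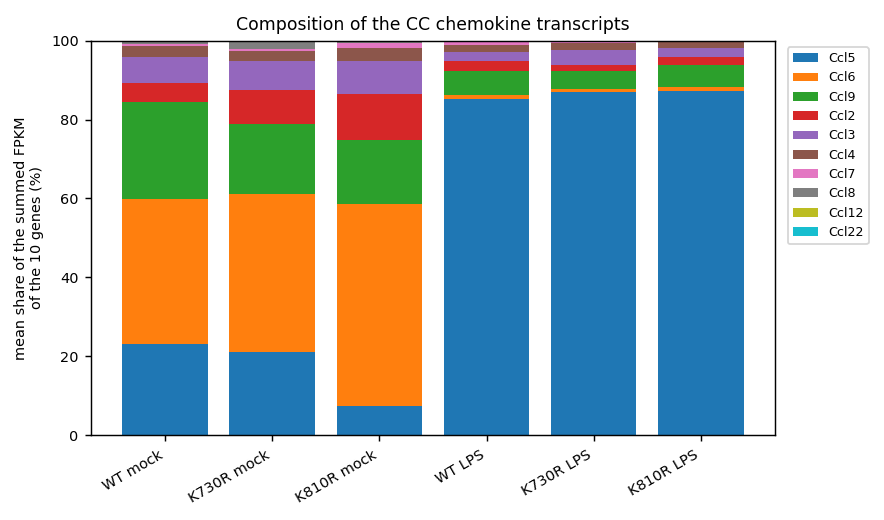
Mean share of each gene in the summed FPKM of the 10 CC chemokine genes, as stacked bars in percent for the 6 groups of 3 libraries. Ccl6, Ccl9 and Ccl5 make up most of each mock-treated bar, with Ccl5 at 7.39% in TLR4-K810R against 23.1% in TLR4-WT, and Ccl5 makes up 85.1% to 87.3% of each LPS-treated bar.

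Without LPS, Ccl5 and Ccl9 were lower in TLR4-K810R than in TLR4-WT macrophages. These were the 2 of 10 genes called, where 1.58% of all genes were called in either direction. Ccl5 was at 79.5 ± 3.08 FPKM (SD, n = 3) in TLR4-WT and 19.9 ± 1.88 FPKM in TLR4-K810R macrophages (log2 difference -1.95, SE 0.15, adjusted p = 1.42e-06). Ccl9 was at 86.8 ± 16.4 and 44.2 ± 4.72 FPKM (-0.95, SE 0.13, adjusted p = 0.000685), and this call was lost when only the groups compared entered the fit (adjusted p = 0.0669). Ccl2, Ccl7 and Ccl8 also had groups that did not overlap, so that 5 of 10 genes did, beside 20.8% of all genes. Ccl2 was at 33.7 ± 12.9 FPKM in TLR4-K810R against 16.9 ± 2.37 FPKM in TLR4-WT (0.90, adjusted p = 0.154) and Ccl7 at 3.23 ± 0.146 against 1.52 ± 0.524 FPKM (0.77, adjusted p = 0.493). Ccl8 was at 1.13 ± 0.687 against 2.4 ± 0.297 FPKM (-0.72, adjusted p = 0.0884). Mesothelial and fibroblast markers (9 of 9 with a value) summed to 133, 118 and 286 FPKM in the mock-treated TLR4-K810R libraries and to 32.6 to 49.1 FPKM in TLR4-WT. Of these, Wt1, Col1a1, Col1a2 and Dcn were called higher in TLR4-K810R, as were Fabp1, Reg3b and Reg3g of the intestinal list. The library with 286 FPKM also had the highest Ccl2, 48.4 FPKM, and the part of these cells in the Ccl2 values was not tested. Among monocyte and resident macrophage markers, Ly6c2 was called lower (-1.86, adjusted p = 0.000388) and Plac8 (1.79, adjusted p = 0.00381) and Gata6 (1.64, adjusted p = 0.00381) higher in mock-treated TLR4-K810R than in TLR4-WT macrophages, and their part in the Ccl5 and Ccl9 values was not tested.

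TLR4-K730R macrophages without LPS had 0 of the 10 genes called by limma, where 0.268% of all genes were called, and 3 of the 10 and 747 of all genes had an unadjusted p below 0.05. Ccl9 came closest, at 50.3 ± 2.53 against 86.8 ± 16.4 FPKM in TLR4-WT (-0.76, adjusted p = 0.0103). Ccl8 was at 5.18 ± 0.18 against 2.4 ± 0.297 FPKM (0.87, adjusted p = 0.122) and Ccl5 at 60.1 ± 8.86 against 79.5 ± 3.08 FPKM (-0.41, adjusted p = 0.48). Ccl8, Ccl5, Ccl9 and Ccl22 had groups that did not overlap, which makes 4 of 10, beside 16.4% of all genes. Ccl8 therefore stood on opposite sides of TLR4-WT in the mutants, above it in TLR4-K730R and below it in TLR4-K810R libraries, with neither difference called. Both mutants were compared with the same TLR4-WT libraries.

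**Figure D4:**
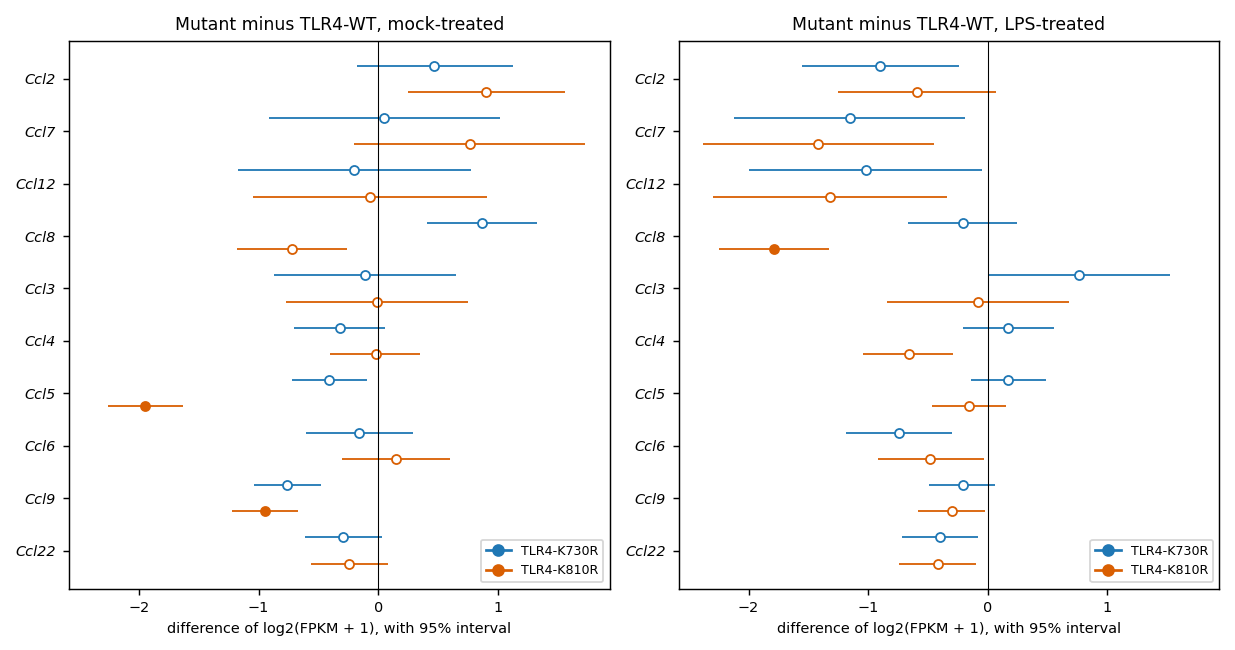
Log2 difference of each CC chemokine gene between each mutant and TLR4-WT on the log2(FPKM + 1) scale with its 95% interval from limma, without LPS on the left and with LPS on the right. Filled circles passed an adjusted p of 0.01, which are Ccl5 (-1.95) and Ccl9 (-0.95) without LPS and Ccl8 (-1.79) with LPS, all 3 in TLR4-K810R macrophages. With LPS, all 10 points of TLR4-K810R lie below 0.

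With LPS, all 10 genes had a lower mean in TLR4-K810R than in TLR4-WT macrophages on the log2 scale, and 1 of them, Ccl8, was called, where 0.134% of all genes were called. Ccl8 was at 5.53 ± 1.25 FPKM in TLR4-WT and 0.894 ± 0.384 FPKM in TLR4-K810R macrophages (-1.79, SE 0.22, adjusted p = 0.00145). The Ccl8 call was lost when only the groups compared entered the fit (adjusted p = 0.109), without LPS-treated TLR4-WT library 1 (-1.83, adjusted p = 0.0143) and without LPS-treated TLR4-K810R library 2 (-1.64, adjusted p = 0.0109). Ccl7 was at 85.2 ± 40.6 and 28.5 ± 4.4 FPKM (-1.42, adjusted p = 0.0983) and Ccl12 at 12.4 ± 5.07 and 4.11 ± 0.568 FPKM (-1.32, adjusted p = 0.12). Ccl4 was at 191 ± 14 and 122 ± 27.6 FPKM (-0.66, adjusted p = 0.0567) and Ccl2 at 253 ± 36.6 and 168 ± 24.8 FPKM (-0.59, adjusted p = 0.281). The groups did not overlap for 8 of the 10 genes, all but Ccl3 and Ccl5, beside 25.3% of all genes. The median log2 difference was -0.53 for the 10 genes and 0.11 for all genes, and median-of-ratios scaling shifted the latter by -0.12. Ccl3 stood at 222 ± 66.5 against 238 ± 93.8 FPKM and Ccl5 at 7984 ± 1752 against 8812 ± 861 FPKM (-0.16, 95% interval -0.47 to 0.15, adjusted p = 0.569), an interval that does not reach the -1.95 found without LPS. Of the cell type markers only S100a9 was called, at 1.88 ± 0.312 FPKM in TLR4-K810R against 0.0732 ± 0.127 FPKM in TLR4-WT. Without a call, Plac8 (4.33 against 16.8 FPKM), Timd4 (1.14 against 4.98 FPKM) and Prg4 (6.6 against 22.1 FPKM) were lower in TLR4-K810R. Gata6 was higher (1.59 against 0.445 FPKM), also without a call. The part of such cells in the chemokine values was not tested.

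TLR4-K730R macrophages with LPS had 0 of the 10 genes called by limma, as did all genes (0% of 9707), and 6 of the 10 and 746 of all genes had an unadjusted p below 0.05. Ccl5, Ccl6 and Ccl22 had groups that did not overlap, 3 of 10 beside 10.9% of all genes. Ccl6 was at 74.3 ± 12.2 against 125 ± 17.2 FPKM in TLR4-WT (-0.74, adjusted p = 0.541) and Ccl22 at 5.27 ± 0.579 against 7.35 ± 1.47 FPKM (-0.40, adjusted p = 0.583). The Ccl5 values of the 3 TLR4-K730R libraries, 9911 ± 614 FPKM, all lay above those of TLR4-WT, 8812 ± 861 FPKM. The widest gaps were those of the genes in which 1 library stood apart. Ccl2 was at 148 ± 82.5 against 253 ± 36.6 FPKM (-0.90, adjusted p = 0.566), Ccl7 at 44 ± 40 against 85.2 ± 40.6 FPKM (-1.15, adjusted p = 0.615), Ccl12 at 7.58 ± 8.56 against 12.4 ± 5.07 FPKM (-1.02, adjusted p = 0.643) and Ccl3 at 435 ± 222 against 238 ± 93.8 FPKM (0.76, adjusted p = 0.649).

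The LPS-treated libraries divided in the same way for several genes. TLR4-WT libraries 1 and 2 and TLR4-K730R library 3 held the 3 highest values of 9 for Ccl2, Ccl7 and Ccl12, and TLR4-WT library 3 came next in each. In Ccl3 the order turned, with TLR4-K730R libraries 2 and 1 highest and these 3 libraries at places 8, 6 and 7 of 9. Markers of resident peritoneal macrophages (6 of 6 with a value) summed to 34, 36.9 and 18.3 FPKM in the LPS-treated TLR4-WT libraries, to 16.4, 17.5 and 26.2 FPKM in TLR4-K730R and to 6.5 to 15.2 FPKM in TLR4-K810R libraries, so that the same 3 libraries were highest. Prg4 and Timd4 made up most of these sums, with Timd4 at 6.17, 5.74 and 7.04 FPKM in the 3 libraries. Gata6 of the same list did not follow, at 0, 0.641 and 0.591 FPKM there and 1.29 to 1.78 FPKM in TLR4-K810R. The monocyte list was mixed. Its sums, mostly Ly6c2, were 337, 358 and 364 FPKM in the 3 libraries and 485, 433 and 443 FPKM in TLR4-WT library 3 and TLR4-K730R libraries 1 and 2, whereas Vcan (19, 23.4 and 18.4 FPKM) and Plac8 (23.5, 13.9 and 13.7 FPKM) were highest in the 3 libraries. Genes of other lists split in this way too. Fcgr1 (314, 412 and 378 FPKM), Mertk (15.9, 14 and 13.5 FPKM), Csf3r (67.4, 65.1 and 60.1 FPKM) and Stat2 (73.7, 84.9 and 70.9 FPKM) were highest in the 3 libraries. Adgre1 (216, 211 and 205 FPKM) and Lyz2 (6930, 5944 and 6328 FPKM) were lowest there. The part of resident macrophages or monocytes in these values was not tested. Without TLR4-K730R library 3 the difference from TLR4-WT was -1.32 for Ccl2 (adjusted p = 0.0628), -1.84 for Ccl7 (0.0627), -1.80 for Ccl12 (0.0268) and 1.30 for Ccl3 (0.0628), none of which passed the threshold.

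**Figure D5:**
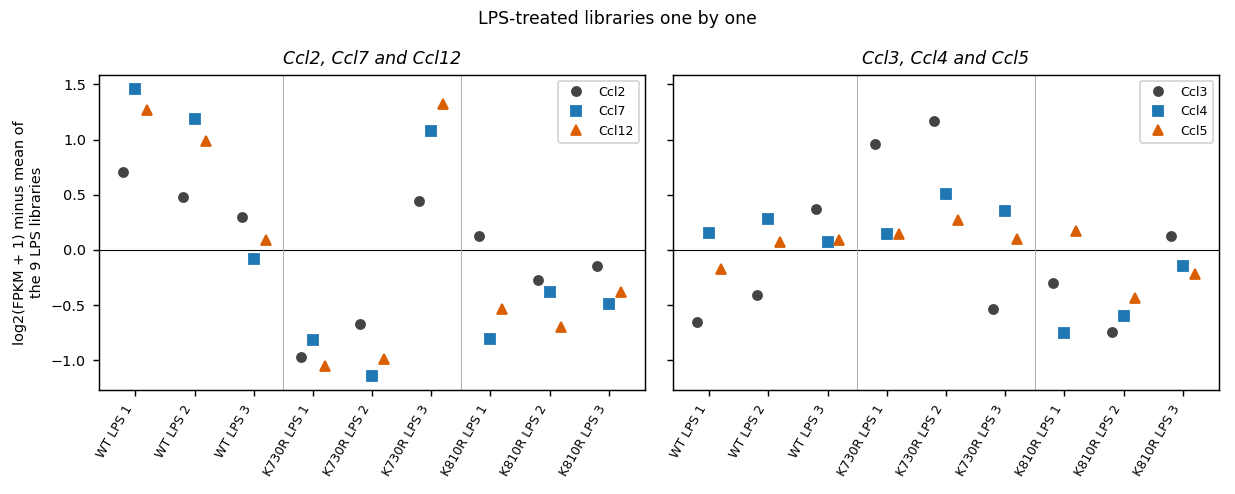
Level of 6 CC chemokine genes in each of the 9 LPS-treated libraries, as log2(FPKM + 1) minus the mean over those libraries, with 1 marker per gene and library. Ccl7 and Ccl12 lie near or above 1 in TLR4-WT libraries 1 and 2 and TLR4-K730R library 3 (1.46, 1.19 and 1.08 for Ccl7), where Ccl3 lies below 0 (-0.65, -0.41 and -0.54), and Ccl5 stays within -0.44 and 0.27.

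The size of the LPS response itself differed between genotypes for 1 of the 10 genes. Ccl5 rose more in TLR4-K810R than in TLR4-WT macrophages (difference of log2 differences 1.79, SE 0.21, adjusted p = 0.000612), where 0.124% of all genes were called. Its LPS-treated levels overlapped and its mock-treated level was the lower one in TLR4-K810R, as given above, and both values use the same mock-treated libraries. For the other chemokines in TLR4-K810R the difference did not pass the threshold, with -2.19 for Ccl7 (adjusted p = 0.153), -1.49 for Ccl2 (0.152), -1.07 for Ccl8 (0.147) and 0.64 for Ccl9 (0.147). The monocyte marker Plac8 was called in this comparison as well. Its log2 difference after LPS was 3.33 in TLR4-WT and -0.16 in TLR4-K810R, and the part of monocytes in the chemokine values was not tested. In TLR4-K730R 0 of the 10 differences were called by limma, where 0.0412% of all genes were called, and 4 of the 10 and 681 of all genes had an unadjusted p below 0.05. They included -1.37 for Ccl2 (adjusted p = 0.528), -1.21 for Ccl7 (0.759) and -1.08 for Ccl8 (0.453). The LPS-treated Ccl8 values all lay above the mock-treated ones in TLR4-WT and all below them in TLR4-K730R macrophages, where median-of-ratios scaling turned the direction, as given above.

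Other genes of the chemokine system were described from lists. Of 10 further CC chemokines, 9 had a value and 2 passed the filter, Ccl24 and Ccl25, and neither was called in any of the 9 comparisons. Among CC chemokine receptor genes that passed the filter, Ccr2, Ccr7 and Ccrl2 are described. Ccrl2, which presents the chemoattractant chemerin, rose from 30 ± 2.07 to 184 ± 17 FPKM in TLR4-WT macrophages (log2 difference 2.57, adjusted p = 4.05e-10), and by 2.23 in TLR4-K730R and 2.55 in TLR4-K810R. Ccr7, which guides cells to lymph nodes, rose by 2.05 (adjusted p = 2.63e-07), 1.79 and 1.85. Ccr2, the receptor for Ccl2, Ccl7 and Ccl12, fell in TLR4-K730R (-1.36, adjusted p = 0.00166) and TLR4-K810R macrophages (-2.07, adjusted p = 4.71e-05) and was at -0.88 in TLR4-WT (adjusted p = 0.0263). Mock-treated Ccr2 was at 2.24 ± 1.07, 2.87 ± 0.615 and 4.27 ± 1.78 FPKM in the same order of genotypes as above. None of these 3 receptors was called between genotypes or in the size of the response.

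Of the 7 genes of chemokine processing and retention, 6 passed the filter. Sdc4, a cell-surface proteoglycan, and Cst7, a cysteine protease inhibitor, rose in every genotype and the sheddase gene Adam10 fell in every genotype (Sdc4 2.63, Cst7 2.98 and Adam10 -1.19 in TLR4-WT). In all, 2 rose and 1 fell in TLR4-WT, 2 rose and 2 fell in TLR4-K730R and 4 rose and 2 fell in TLR4-K810R macrophages, and none was called between genotypes. Beside the shares called higher given above, 23.9%, 26.5% and 19.7% of all genes tested were called lower after LPS in TLR4-WT, TLR4-K730R and TLR4-K810R macrophages. Of 14 regulators of chemokine transcription, 11 had a value and 10 passed the filter. LPS raised 8 of them in TLR4-WT macrophages, 7 with the K730R and 8 with the K810R change, and lowered 1 in each, Stat6, where 10.4%, 9.32% and 9.08% of all genes were called higher, with Nfkbia, the NF-κB inhibitor, at 2.60, 2.37 and 2.67 and Irf1 at 2.32, 2.45 and 1.64. Without LPS, Irf7, which drives interferon genes, was lower in both mutants, by -3.03 in TLR4-K730R (adjusted p = 0.000371) and -2.75 in TLR4-K810R (adjusted p = 0.000388), and with LPS none of the 10 was called between genotypes.

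The genes whose log2(FPKM + 1) followed each chemokine most closely over the 18 libraries were named as a description, since all of them share the LPS contrast. For Ccl5 they were Scarf1 and Acsl1 (Pearson r = 0.996 each), for Ccl9 Parp12 (0.995) and Ifi35 (0.994), and for Ccl4 Tnfsf15 (0.995) and Draxin (0.994). For Ccl3 they were Il12a (0.994) and Itgb8 (0.991), and for Ccl22 Slc7a2 (0.987) and Lcp2 (0.986). For Ccl2 they were Timp1 (0.986) and Tmem243 (0.976), whereas Glipr2 was among the closest for both Ccl7 (0.989, with Itga9 at 0.985) and Ccl12 (0.988, with Carhsp1 at 0.990). Ccl6 and Ccl8 had looser company, with Ugp2 (0.906) and Xiap (0.895) for Ccl6 and Dcstamp (0.830) and Arhgap8 (0.797) for Ccl8.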

How the data were processed

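RNA-seq of 18 libraries in 6 groups of 3 was analysed, with groups and replicate numbers from the sample labels. The authors deposited FPKM per transcript event for each library, in 80071 to 90401 rows, already normalized for length and library. An event with no expression is not listed. The aligner and the counting program are not given in the sources used here. The processing notes name a human genome build, whereas the coordinates fit mouse GRCm38 (GENCODE M21). Only first-exon (TSS) and last-exon (TTS) events inside the annotated gene and on its strand were summed, which left out 6.24% of their FPKM, and the larger of both sums was the gene value (Python 3.11.15, pandas 2.3.3). A gene can therefore be listed at 0 because its events were not listed. Without read counts neither a depth nor a count test is given.

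The 9707 genes that reached 1 FPKM in 3 or more libraries were tested on log2(FPKM + 1) with limma (version 3.58.1, R 4.3.3), with 1 mean per group over all 18 libraries, a mean-variance trend and adjustment by Benjamini-Hochberg across the 9707 genes in each of the 9 comparisons. The call threshold was an adjusted p below 0.01. The script was tested on simulated data. The alternatives were another pseudocount, other filters, scaling, library weights, a fit of only the groups compared, other event ends, a replicate block and leaving out each library. Last-exon events alone for Ccl4 were added after seeing the data. The members and gene lists were chosen with earlier results of these data known. Named were all members, the list genes, and for each member the 2 genes outside the members with the highest correlation over the 18 libraries. Irf8, Zfp36, Socs1 and the atypical receptors Ackr1, Ackr2 and Ackr4 had no event and are not analysed here, and 1 item of the receptor list is not reported here. The coding change in Tlr4 cannot be read from these values, so genotypes follow the labels.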

Additional observations from a re-analysis of the deposited data

Results flagged for a closer look

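For Ccl8 all 3 LPS-treated libraries lay above the mock-treated ones in TLR4-WT, and all 3 lay below them in TLR4-K730R macrophages. The TLR4-K730R response was -0.15 (adjusted p = 0.578) and 0.19 with median-of-ratios scaling, so its direction is not settled. The difference of the log2 differences was -1.08 (SE 0.30, unadjusted p = 0.00276 and adjusted p = 0.453, limma), so it did not pass the threshold.

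The LPS response of Ccl5 was larger in TLR4-K810R than in TLR4-WT macrophages by 1.79 on the log2 scale (SE 0.21, adjusted p = 0.000612, limma). The mock-treated level was lower in TLR4-K810R (19.9 ± 1.88 against 79.5 ± 3.08 FPKM), while the LPS-treated levels overlapped (7984 ± 1752 against 8812 ± 861 FPKM).

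First-exon events named for Ccl5 but lying upstream of the annotated gene, which the gene value leaves out, were listed in 7 of 9 LPS-treated and 0 of 9 mock-treated libraries. The exon that all 6 such TLR4-WT and TLR4-K730R libraries share begins 4174 bases upstream of the annotated start (chr11:83534571-83534692, minus strand, GRCm38) and had 5743 to 10595 FPKM. In TLR4-K810R library 3 the listed first exon begins 234 bases upstream and had 6485 FPKM, and LPS-treated TLR4-K810R libraries 1 and 2 list none.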

How the results depend on the processing

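Of 192 recomputed counts of called members, 178 stayed within 1.5 times of the reported one and 14 did not. In TLR4-K730R without LPS the count of 0 became 1, Ccl9, with a pseudocount of 0.1, a minimum of 5 FPKM, library weights, an adjusted p below 0.05, last-exon events alone or all events that name the gene, and was 0 to 1 when a library was left out (1 without mock-treated TLR4-WT library 3). In TLR4-K810R with LPS the count of 1 became 2 with library weights (Ccl7 and Ccl8, with 366 of all genes called instead of 13) and 0 with only the groups compared (0 of all genes), and was 0 to 1 when a library was left out. In TLR4-K810R without LPS the count of 2 became 1 with only the groups compared (Ccl5; 27 instead of 153 of all genes) and 1 with first-exon events alone (Ccl9), where Ccl5 has no value and the count for the difference of responses was therefore 0. An adjusted p below 0.05 gave 342 and 213 of all genes for TLR4-K810R without and with LPS. The sign turned for Ccl6 after LPS in TLR4-WT with scaling (0.29), with weights (0.04), without mock-treated library 2 (0.18) and without LPS-treated library 3 (0.07), with a range of -0.25 to 0.18 over left-out libraries. It turned for Ccl8 in TLR4-K730R with scaling (0.19) and in TLR4-K810R without mock-treated library 2 (0.09) and without LPS-treated library 2 (0.01), with a range of -0.40 to 0.09. The cause of these changes was not tested. Without LPS-treated TLR4-WT library 3, Ccl7 was at -1.89 (adjusted p = 0.0166) and Ccl12 at -1.67 (0.0434) in TLR4-K810R with LPS, with 283 of all genes called. Of 1613 alternatives for 76 single-gene results, 1586 kept direction and side of the threshold. The 76 are all LPS responses and those differences between genotypes or responses that were at least as large as their SE. The differences nearest to no change, whose sign is least certain, are therefore not among them. Replicate numbers did not pair the libraries (45 same-number pairs, r from -0.32 to 0.10, and 0 of 18 libraries closest to their own number). With the replicate block the counts of called members stayed at 9, 8 and 8 for LPS in TLR4-WT, TLR4-K730R and TLR4-K810R, at 0 and 2 for the mutants without LPS, at 0 and 1 with LPS and at 0 and 1 for the difference of responses, while the counts over all genes fell from 26 to 11, 153 to 107, 13 to 3 and 12 to 6 where they moved. Leaving out libraries gave 8 to 9 called members for LPS in TLR4-WT and TLR4-K810R. No depth is known, and values below 1 FPKM, as for Ccl12 and Ccl22 without LPS, are the least certain.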
